A study of Mus musculus with 11 samples.

Results

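4C11− is a murine melanoma cell line that grows as a tumor in syngeneic mice and forms no lung macrometastases. The comparison set all 3 libraries of 4C11−, of 11 in all, against the 8 libraries of the other lines of its series, and asked what is particular to this line. The other lines were melan-a, spontaneously immortalized nonmalignant melanocytes from which all the others descend (2 libraries, replicates 2 and 3, kept in 200 nM PMA, a phorbol ester), 4C, pre-malignant melanocytes (3 libraries), and 4C11+, metastatic melanoma (3 libraries). 4C, 4C11− and 4C11+ were obtained from melan-a by repeated loss of anchorage and were kept in 0 nM PMA, in otherwise the same medium. All lines are syngeneic to C57Bl/6 mice and were sampled as untreated baseline cultures. 4C and 4C11− have a mesenchymal phenotype and melan-a and 4C11+ an epithelial one. Each line is a single cell line without independent clones, and its libraries are parallel cultures, so the p-values measure the spread between cultures. For melan-a, replicate 1 is not analysed here. Since melan-a alone received PMA, the medium and the line cannot be told apart in its comparison.

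Melanocytes make pigment under the transcription factor MITF and its partners SOX10 and PAX3. Melanoma cells can lose this program and switch to a mesenchymal state, in which SNAIL and TWIST factors, a collagen-rich matrix and growth factor receptors are expressed. Endothelial-type genes can also be expressed by melanoma cells. A line from the middle of a progression series can therefore differ from its relatives by what it shares with 1 of them or by what is its own, and the comparisons below separate these cases.

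Expression was measured by total RNA sequencing, and the values are log2 CPM (read counts scaled to library size) of 14272 genes, made and filtered by the authors. The difference reported for a gene is the 4C11− mean minus the mean of the 3 other line means, in log2 units, tested with limma in a single fit of all 11 libraries. A gene was called at an adjusted p under 0.05 (Benjamini-Hochberg over all genes). Low values fall on steps, each taken here as 1 read. Every library ends at the same highest value, as after quantile normalization, so the steps do not give the sequencing depth. A gene at 3 reads or fewer in every library of a line has no measurable level there. Its difference is written as "at least", from line means with all values raised to that of 3 reads. The adjusted p beside such a difference comes from the main fit, on the values as deposited.

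Replicate 1 of 4C11− stood apart from the others. Its Pearson correlation across genes was 0.924 with replicate 2 and 0.888 with replicate 3, whereas replicates 2 and 3 had 0.971 with each other and 0.932 to 0.943 with the libraries of 4C. Across 9363 genes, the deviation of replicate 1 from the other two replicates had a correlation of 0.667 with the GC content of the longest transcript and of -0.357 with the logarithm of its length. The deviations within the line are linked, and those of replicates 2 and 3 had correlations of -0.434 and -0.676 with GC content. Genes over 2 log2 units from the mean of the other two libraries of the line numbered 650 in replicate 1, 9 in replicate 2 and 149 in replicate 3. The main counts are therefore given with and without replicate 1 of 4C11−, and whether GC content or length plays a part in any single gene was not tested. The 2 libraries of melan-a were also unlike each other, with a correlation of 0.907 and 402 genes over 2 log2 units apart on the same count. Means of melan-a and the calls against it rest on these 2 libraries.

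The labelled cell type was checked against its markers. Of 17 measured pigment cell genes, 16 were lower in 4C11− and 0 higher (median difference -5.15, against -0.06 over all genes), and the same count of 16 was obtained without replicate 1. *Tyrp1* and *Dct*, enzymes of melanin synthesis, had means of -1.87 ± 2.22 and -1.61 ± 1.22 (SD, n = 3) in 4C11−, against 10.57 and 9.92 in melan-a and 11.55 and 11.70 in 4C11+. *Mitf* was at -0.70, 1.14 and -0.70 in 4C11−, 0.87, -0.70 and 0.44 in 4C, 7.73 and 7.97 in melan-a and 6.38, 6.23 and 8.76 in 4C11+. The pigment program was thus near the limit of measurement in 4C11− and 4C alike, and its summed level was 5.64 to 6.28 log2 CPM in 4C11− and 5.90 to 13.83 in the other libraries. *Pax3* stayed measurable at 5.30 ± 0.20 (SD, n = 3) in 4C11−, lower than the 7.44 of melan-a and 6.72 of 4C11+. In these bulk cultures fewer cells of a type and less RNA per cell cannot be told apart. Markers of other cell types were checked too, those of fibroblasts and endothelium beside the results they belong to. Of 10 leukocyte markers, 3 were measured and 0 called, and of 8 muscle markers, 3 were measured and 0 called. The 3 measured keratinocyte markers included 1 called, *Krt18*, a simple epithelial keratin (7.97 in 4C11−, 9.23 in 4C, at least 5.01 log2 units higher than the mean of the other lines).

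In all, 1242 genes were higher (8.7% of those tested) and 905 lower (6.34%) in 4C11− when set against the mean of the other lines. Without replicate 1 of 4C11−, 915 were higher and 982 lower, so the share of higher genes depended on this library. The distance to the single lines was unequal. Against 4C11+, 4433 genes differed (31.1%), against melan-a 1940 (13.6%) and against 4C 238 (1.67%, 180 higher and 58 lower). The 3 pairwise comparisons share the 4C11− libraries and are given side by side as values.

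Most of the difference from the mean of the other lines was shared with 4C. Among the 2147 called genes, the median absolute difference was 0.58 log2 units against 4C, 2.06 against melan-a and 2.76 against 4C11+. For 1735 of them 4C was the nearest line. In the same direction, 1945 of them differed from 4C11+, 1408 from melan-a and 134 from 4C. The most frequent pattern was a call against both epithelial lines without one against 4C, in 661 higher and 529 lower genes. A further 384 higher and 273 lower genes were called against 4C11+ alone. A missing call does not show an equal level, and the sizes of their differences from melan-a and 4C were not examined.

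**Figure D1:**
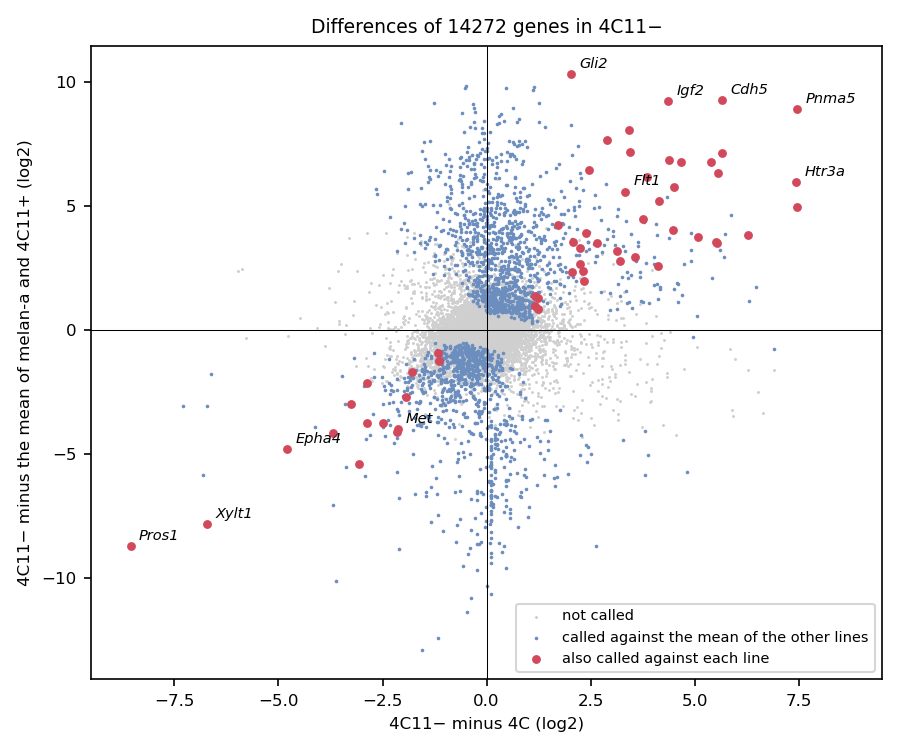
Differences of 14272 genes in log2 units, with 4C11− minus 4C on the x axis and 4C11− minus the mean of melan-a and 4C11+ on the y axis. Blue points are genes called against the mean of the other lines, most of which lie along the vertical line where 4C11− and 4C have the same level, and red points are the 57 genes called against each line as well, in the corners at the top right and bottom left.

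A gene was taken as particular to 4C11− when it was called against the mean of the other lines and against each of the 3 lines with the same sign. This held for 42 higher genes (0.294% of those tested) and 15 lower genes (0.105%). The excess of higher genes depended on the setting, since 24 higher and 26 lower genes were particular without replicate 1 of 4C11−, 52 and 36 with GC content corrected and 142 and 150 with library weights. In 56 of the 57, the 3 libraries of 4C11− lay beyond all 8 other libraries, the exception being *Hebp1*, whose value in 1 library of 4C11+ (0.85) exceeded that of 1 library of 4C11− (0.60). Over all genes, libraries of 4C11− did not overlap the others for 424 higher genes (2.97%) and 238 lower genes (1.67%). All 57 genes remained called against the mean of the other lines when any 1 of the 4C11− libraries was left out. The calls against the single lines were less stable. Of the 57, 34 remained particular without replicate 1, 22 without replicate 2 and 36 without replicate 3. Removing the relation of each library to GC content before the fit, an alternative chosen after the data were seen, left 51 of the 57. Of the 57 genes, 54 are annotated as protein coding.

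Many of the genes that were particular by a higher level were under the limit of measurement in an epithelial line. Of the 42, 13 had 3 reads or fewer in every library of both melan-a and 4C11+, 19 had 3 reads or fewer in every library of melan-a, 18 in every library of 4C11+ and 5 in every library of 4C. Over all genes, single libraries had 8.20 to 9.30% at 3 reads or fewer in melan-a, 9.73 to 12.5% in 4C11+ and 4.59 to 5.86% in 4C. The level of 3 reads was also unequal, from -2.01 in 4C11− replicates 2 and 3 to 0.15 in 4C11+ replicates 1 and 2. How far this unequal limit shapes the counts was not tested. In 23 of the 42, the 4C mean lay above those of melan-a and 4C11+, so that 4C was intermediate. No gene was at 3 reads or fewer in all 8 other libraries and above 3 reads in all 3 of 4C11− (0 genes). The opposite held for 5 genes, *Pros1*, *Xylt1*, *Acsbg1*, *Gm2420* and *Ano1*. These counts cannot be set against each other, because the authors kept only genes with at least 1 CPM in 4 libraries. A gene expressed in the 3 libraries of 4C11− alone would mostly have been removed before the analysis, whereas the opposite kind could pass. The count of 0 therefore does not show that such genes are absent.

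**Figure D2:**
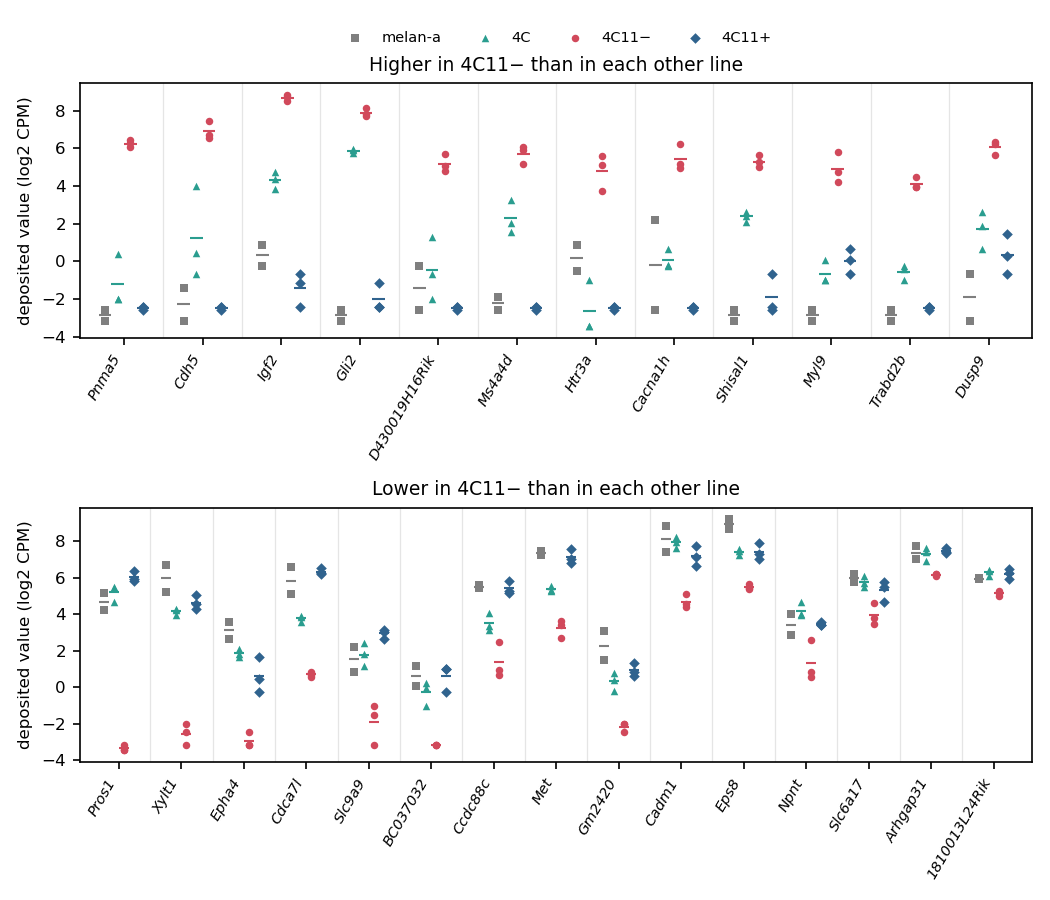
Values of the 12 particular genes with the largest higher differences (top) and of the 15 lower ones (bottom), in log2 CPM as deposited, with a point for each library and a short line at the mean of each line. The 4C11− libraries (red circles) lie above all other libraries in the top panel and below all of them in the bottom panel, while 4C (green triangles) lies between 4C11− and the epithelial lines for genes such as *Gli2* and *Igf2*.

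Sequences upstream of the start sites are shown for 6 of these genes, 3 lower and 3 higher, to set the upstream bases of genes lowered and raised in the same line side by side. They are the 120 bases before the RefSeq start site in build GRCm38.p6, 5′ to 3′ on the strand of the gene, and capitals mark matches on either strand to any of 5 motifs, the TATA box TATAAA, the E-box CACGTG that MITF binds, the GC box GGGCGG, the AP-1 core TGANTCA and the GLI sequence TGGGTGGTC. The windows are chr16:62854187-62854306 (plus strand) for *Pros1*, chr6:17463837-17463956 (plus) for *Met*, chr1:77515089-77515208 (minus) for *Epha4*, chr5:147726012-147726131 (minus) for *Flt1*, chr1:119053620-119053739 (minus) for *Gli2* and chrX:73037104-73037223 (minus) for *Pnma5*.
Pros1: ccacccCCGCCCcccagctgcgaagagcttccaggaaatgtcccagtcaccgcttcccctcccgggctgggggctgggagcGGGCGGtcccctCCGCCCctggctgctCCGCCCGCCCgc
Met: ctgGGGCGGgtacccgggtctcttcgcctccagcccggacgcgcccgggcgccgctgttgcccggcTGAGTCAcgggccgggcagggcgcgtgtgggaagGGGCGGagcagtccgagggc
Epha4: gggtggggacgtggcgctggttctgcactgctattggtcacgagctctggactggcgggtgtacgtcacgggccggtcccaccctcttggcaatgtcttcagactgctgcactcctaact
Flt1: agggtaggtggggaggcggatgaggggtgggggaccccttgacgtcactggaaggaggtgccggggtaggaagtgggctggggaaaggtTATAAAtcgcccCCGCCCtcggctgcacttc
Gli2: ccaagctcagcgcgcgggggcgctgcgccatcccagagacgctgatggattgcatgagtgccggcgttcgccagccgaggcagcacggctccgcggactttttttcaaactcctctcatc
Pnma5: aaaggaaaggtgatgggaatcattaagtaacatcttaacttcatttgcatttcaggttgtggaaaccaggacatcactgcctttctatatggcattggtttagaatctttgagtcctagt
Upstream windows were found for 39 of the 57 genes, as 42 windows of 30 higher genes and 11 windows of 9 lower genes, and 250 bases of each were searched. The 250 bases of *Pnma5* held 0 CpG dinucleotides, against 14 to 24 for the other 5 genes shown. TGANTCA was found in 4 of the 11 windows of lower genes, those of *Met*, *Slc9a9* and a pair of *Slc6a17*, and in 1 of 42 windows of higher genes, against 4.39% of the 12737 windows of measured genes and 6.75% of all 32851. GGGCGG was found in 19 of 42 and 6 of 11 windows, against 57.3% of those of measured genes. TATAAA was found in 2 of 42 and 0 of 11 windows (6.42% of those of measured genes) and CACGTG in 2 of 42 and 1 of 11 (8.20%). TGGGTGGTC was found in 0 of the 42 and 0 of the 11 windows, with 0.196% among measured genes. No motif was corrected for overlap with another, and a match describes letters and not binding.

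*Pros1* was the most lowered of the particular genes. It encodes protein S, an anticoagulant and a ligand of the TAM receptors (TYRO3, AXL and MERTK), and lies at chromosome 16, 62854307 to 62929346 (GRCm38, plus strand). It was at -3.15, -3.44 and -3.44 in 4C11− against 4.70, 5.43 and 5.51 in 4C, 5.17 and 4.24 in melan-a and 5.84, 5.92 and 6.40 in 4C11+. All 3 libraries of 4C11− were thus at 3 reads or fewer while every other library was clearly above. *Pros1* was at least 6.89 log2 units lower than the mean of the other lines (limma, adjusted p = 3.4e-08) and at least 6.78 lower than in 4C (limma, adjusted p = 6.2e-07). The other TAM ligand *Gas6* was at 8.35 ± 0.04 (SD, n = 3) in 4C11− and 8.35 in 4C, against 6.32 in melan-a and -1.43 in 4C11+. Of the receptors, *Axl* differed by 0.71, *Mertk* by 0.13 and *Tyro3* by -0.09 from the mean of the other lines, and none of these was called.

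*Xylt1*, a xylosyltransferase that begins glycosaminoglycan chains on proteoglycans, was at -2.01, -3.15 and -2.44 in 4C11−. It was at 6.73 and 5.24 in melan-a, 3.99 to 4.29 in 4C and 4.28 to 5.08 in 4C11+. *Xylt1* was thus under the limit of measurement in 4C11− alone, at least 6.51 log2 units lower than the mean of the other lines (limma, adjusted p = 6.2e-07). *Epha4*, a receptor for ephrins, was at -3.15, -3.15 and -2.44 in 4C11−, 3.60 and 2.67 in melan-a, 2.08, 1.85 and 1.68 in 4C and 0.44, 1.68 and -0.24 in 4C11+. It was at least 3.45 log2 units lower (limma, adjusted p = 3.8e-05), with 1 library of 4C11+ also at 3 reads. *Acsbg1*, an acyl-CoA synthetase, and *Ano1*, a calcium-activated chloride channel, were at least 3.41 and 2.64 lower than the mean of the other lines, and did not meet the threshold against every single line.

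*Met*, the receptor of hepatocyte growth factor, was lowered and not lost. Its values were 2.72, 3.42 and 3.65 in 4C11−, 5.34, 5.29 and 5.57 in 4C, 7.24 and 7.48 in melan-a and 7.07, 6.84 and 7.59 in 4C11+. The libraries of 4C11− lay below all others, and 4C lay between them and the epithelial lines, which overlapped each other. *Met* differed by -3.38 (standard error 0.24; limma, adjusted p = 3.6e-06) from the mean of the other lines and by -2.14 from 4C (limma, adjusted p = 0.0028). *Cdca7l*, a MYC-interacting nuclear protein, showed the same order with 0.71 ± 0.13 (SD, n = 3) in 4C11−, 3.79 in 4C, 5.85 in melan-a and 6.35 in 4C11+ (difference -4.62, standard error 0.29; limma, adjusted p = 1.8e-06).

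Adhesion and cytoskeletal genes followed among the lower genes. *Cadm1*, an immunoglobulin-type cell adhesion molecule, was at 4.41, 4.57 and 5.11 in 4C11− and between 6.68 and 8.85 in the other libraries (difference -3.06, standard error 0.32; limma, adjusted p = 5.8e-05). *Eps8*, an actin-capping adaptor of receptor signalling, was at 5.41, 5.44 and 5.66 in 4C11− and between 7.05 and 9.23 elsewhere. Neither range touched that of 4C11−. *Npnt*, an integrin-binding matrix protein, was at 2.60, 0.60 and 0.85 in 4C11−, where replicate 1 was the highest, and between 2.89 and 4.68 elsewhere. *Arhgap31*, a GTPase-activating protein of CDC42 and RAC1, and *1810013L24Rik* were lower by 1.22 and 1.01 log2 units, and both lie on chromosome 16, as does *Pros1*. The remaining lower genes were *Slc9a9*, a sodium-proton exchanger of endosomes, *Ccdc88c*, a regulator of Dishevelled, *Slc6a17*, a transporter of neutral amino acids, and the noncoding or poorly described *BC037032* and *Gm2420*. Differences ran from -3.99 (*Slc9a9*) to -1.72 (*Slc6a17*) where at least 1 library of 4C11− was above 3 reads. *Slc9a9* was above 3 reads in only 1 of the 3 libraries of 4C11−, and its difference was -3.51 with low values raised to 3 reads.

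Endothelial-type genes were among the higher genes. *Cdh5* (chromosome 8, 104101625 to 104144511, plus strand) encodes VE-cadherin, the cadherin of endothelial junctions. It was at 6.73, 7.43 and 6.54 in 4C11−, at 4.01, -0.70 and 0.44 in 4C, at -3.15 and -1.42 in melan-a and at -2.44, -2.44 and -2.58 in 4C11+. Replicate 1 of 4C was thus well above the other libraries of that line and still below every library of 4C11−. *Cdh5* was at least 6.60 log2 units higher than the mean of the other lines (limma, adjusted p = 4.4e-05) and 5.65 higher than in 4C (limma, adjusted p = 0.0135).

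*Flt1*, a VEGF receptor (chromosome 5, 147561604 to 147726011, minus strand), was at 3.62, 3.76 and 3.11 in 4C11−, at 1.13, 0.08 and -0.70 in 4C and between -3.15 and -0.70 in melan-a and 4C11+. It was at least 3.57 log2 units higher (limma, adjusted p = 0.00018). The difference of 3.33 from 4C had an adjusted p of 0.0402 in limma, and without replicate 1 of 4C11− it was 3.27 with an adjusted p of 0.0914. *Sox18*, a transcription factor of vascular and lymphatic development, was at 4.51, 4.98 and 4.05 in 4C11−, 1.65, 0.93 and 0.63 in 4C and at 3 reads or fewer in melan-a and 4C11+, at least 4.28 higher (limma, adjusted p = 2.9e-06). Of the 10 endothelial markers, 3 were measured and 2 called higher, *Cdh5* and *Flt1*. The measured *Vwf* differed by 0.70 (standard error 0.65; limma, adjusted p = 0.54), and the other 7, *Pecam1*, *Kdr*, *Tek*, *Tie1*, *Emcn*, *Esam* and *Cldn5*, had no value among the genes analysed here. The summed level of the 3 measured markers was 6.71 to 7.58 log2 CPM in 4C11− and 0.24 to 4.92 in the other libraries.

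*Igf2* (chromosome 7, 142650766 to 142666816, minus strand), the imprinted insulin-like growth factor 2, was the particular gene with the highest level but one. It was at 8.72, 8.83 and 8.50 in 4C11−, 4.38, 3.83 and 4.77 in 4C, 0.87 and -0.24 in melan-a and -2.44, -0.70 and -1.16 in 4C11+. 4C11− lay above 4C and 4C above both epithelial lines, and 4C11+ was at 3 reads or fewer. *Igf2* was at least 7.13 log2 units higher than the mean of the other lines (limma, adjusted p = 7.1e-07) and 4.36 higher than in 4C (limma, adjusted p = 0.00067). The highest level belonged to *Kars*, a lysyl-tRNA synthetase, with 9.48, 9.27 and 9.23 in 4C11− and 7.73 to 8.67 in the other libraries.

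*Gli2* (chromosome 1, 118834132 to 119053619, minus strand), a transcription factor that acts at the end of the hedgehog pathway, was at 7.82, 8.13 and 7.72 in 4C11−, 5.75, 5.95 and 5.91 in 4C and at 3 reads or fewer in all libraries of melan-a and 4C11+. Both mesenchymal lines therefore expressed *Gli2* and 4C11− at the higher level, by 2.02 log2 units (limma, adjusted p = 0.0271, and 0.0638 without replicate 1 of 4C11−).

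The remaining named genes were of several kinds. *Pnma5*, a paraneoplastic antigen family gene of the X chromosome, was at 6.07, 6.25 and 6.42 in 4C11− and 0.40 in 1 library of 4C. It was at 3 reads or fewer in every other library, and at least 6.63 log2 units higher in 4C11− (limma, adjusted p = 1.8e-06). *Htr3a*, a serotonin-gated ion channel subunit, was at 5.13, 5.58 and 3.71 in 4C11− and not above 0.87 elsewhere (at least 5.16; limma, adjusted p = 3.9e-05). *Dusp9*, a phosphatase of MAP kinases, was at 6.35, 6.20 and 5.66 in 4C11− and not above 2.60 elsewhere. In each of these the 4C11− libraries formed a range of their own.

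*Cacna1h*, a T-type calcium channel, was at 6.25, 5.17 and 4.94 in 4C11− and at most 2.17 in the other libraries. *Myl9*, a regulatory light chain of myosin, was at 5.81, 4.72 and 4.21 and at most 0.67 elsewhere. For both genes replicate 1 held the highest value of the line. *Trabd2b*, an inhibitor of Wnt ligands, *Pla2g5*, a secreted phospholipase, *Grrp1*, *Ankrd6*, *Kank4os*, *Col27a1*, *Il11ra1* and *Akna* are particular higher genes on chromosome 4. *Kank4os* is antisense to *Kank4*, and the strand setting of the counting is not given in the sources used here. *Syk*, a kinase of immune receptors, was at 3.11, 2.45 and 3.13 in 4C11− and at most 1.32 elsewhere, and *Il11ra1*, the interleukin 11 receptor, at 6.58, 6.53 and 5.87 and at most 4.84 elsewhere. Other particular higher genes, with 4C11− means between 2.58 and 7.98, were *D430019H16Rik*, *Ms4a4d*, *Shisal1*, *Arhgap8*, *Fibcd1*, *Rbp4*, *Vit*, *Dram1*, *Icosl*, *Pstpip1*, *Piwil2*, *Tspan32*, *Pth1r*, *Ddx18* and *Rfwd3*. Counts of *Il11ra1* may be shared with near-identical copies of this receptor gene.

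The called members of gene lists describe the wider state of the line. Each list is given by how many of its measured members were called against the mean of the other lines, beside 8.7% higher and 6.34% lower over all genes, and few of the members also differed from 4C.

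**Figure D3:**
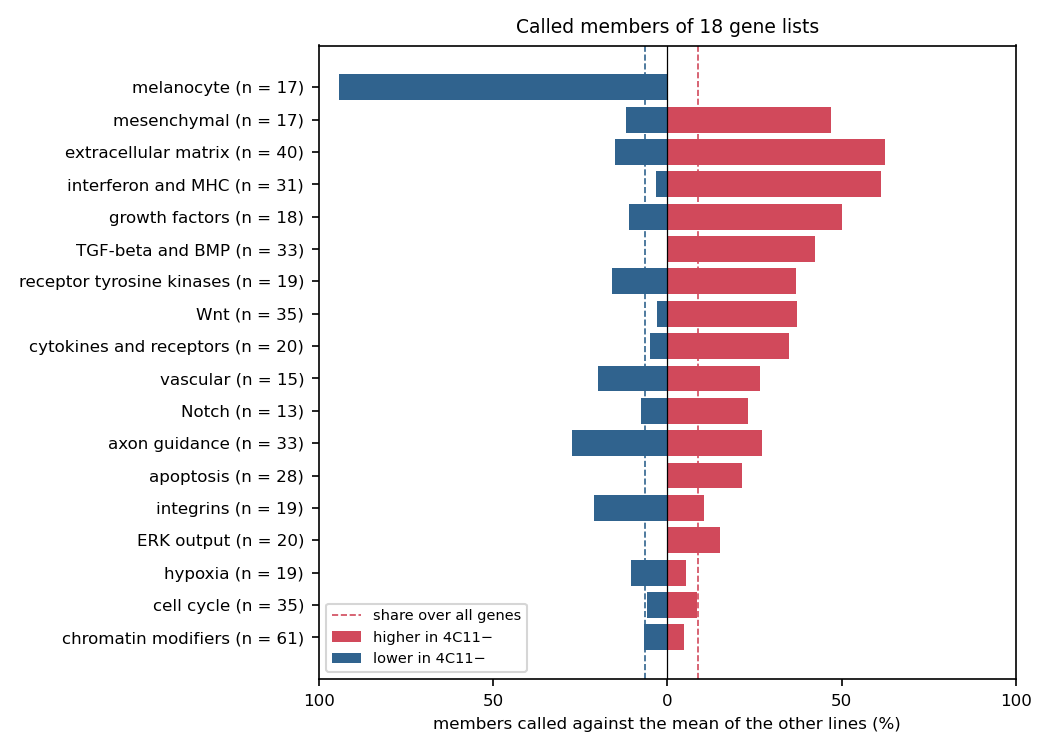
Share of the measured members of 18 gene lists, in percent, called higher (red, right) or lower (blue, left) in 4C11− against the mean of the other lines, with dashed lines at the shares over all genes. Pigment cell genes lie almost wholly on the lower side, with 16 of 17 members, while matrix and interferon genes reach 25 of 40 and 19 of 31 members on the higher side.

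Of 17 mesenchymal state genes, 8 were higher and 2 lower (median 1.60), and the counts without replicate 1 were 8 and 2. The higher ones were the transcription factors *Snai1*, *Twist1*, *Twist2*, *Zeb1* and *Prrx2* and the effectors *Acta2*, *Tagln* and *Loxl1*. *Twist1* was at 3.51, 3.29 and 2.83 in 4C11−, 1.90, 1.46 and 0.91 in 4C and at 3 reads or fewer in the epithelial lines, and *Twist2* and *Snai1* also lay above all other libraries. None of the 17 was called against 4C (*Twist1*, difference 1.79; limma, adjusted p = 0.152). The 2 lower genes were *Cdh2*, encoding N-cadherin, at 3 reads or fewer in every library of 4C11−, and *Vim*, encoding vimentin, at 10.10 ± 0.11 (SD, n = 3) against 11.44 in melan-a and 11.07 in 4C11+. Both are usually taken as mesenchymal markers, and here 4C11− and 4C had similar levels, with differences of 0.10 and -0.04 that were not called. *Fn1*, encoding fibronectin, differed by 0.97 and was not called.

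Extracellular matrix genes were higher in 25 and lower in 6 of 40 cases (median 1.76), and in 21 and 3 without replicate 1. *Col1a1*, the main chain of type I collagen, was at 10.57 ± 0.16 (SD, n = 3) in 4C11− and 10.87 in 4C, against 1.42 in melan-a and 1.76 in 4C11+ (difference 5.88, standard error 0.19; limma, adjusted p = 3.0e-08). *Col6a3* and *Fbn1* had the same pattern, with differences of 5.69 and 4.52, as did *Bgn*, at least 5.68 higher. The lower ones included *Nid1*, *Lamb1*, *Col15a1* and *Fbln5*, which belong to basement membranes and elastic fibers, and *Postn* and *Col9a1*, of which *Fbln5*, *Postn* and *Col9a1* were not called without replicate 1. Of the 40, 3 were called against 4C, all higher in 4C11− and all of the basement membrane. *Lama1* was at 5.04, 3.50 and 3.37 in 4C11− and -0.25, -2.01 and -3.44 in 4C, with replicate 1 of 4C11− the highest of all. *Lama4* was at 4.47 ± 0.89 (SD, n = 3) against -2.04 in 4C, and *Col4a2* at 5.41 ± 0.18 (SD, n = 3) against 2.60. *Lama4* was higher still in melan-a (6.82) and 4C11+ (7.15), and *Lama1* reached 2.85 in 1 library of melan-a. *Col4a4*, a further type IV collagen chain, was among the 57 particular genes (4.29, 4.39 and 4.42 in 4C11−, at most 2.49 elsewhere).

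The 5 measured fibroblast markers, of which 4 were higher and 0 lower, followed the same line (3 without replicate 1, when *Fbln1* was not called). *Col1a1*, *Col3a1*, *Pdgfra* and *Fbln1* were the higher ones, and 4C had similar levels of *Col1a1* and *Col3a1*. The summed level of the list was 11.04 to 11.24 log2 CPM in 4C11− and 5.81 to 11.42 in the other libraries. Its part in the matrix result was not tested, and the matrix and fibroblast lists share members.

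Among ligands, 9 of 18 growth factors were higher and 2 lower (median 1.90), and 7 and 2 without replicate 1. Besides *Igf2*, the higher ones were *Igf1*, *Gas6*, *Gdnf*, *Fgf9*, *Fgf7*, *Kitl*, *Pdgfb* and *Il34*, of which *Fgf7* and *Il34* were not called without replicate 1. *Fgf9* was at 3.46 ± 0.04 (SD, n = 3) in 4C11−, 1.18 in 4C and 3 reads or fewer in the epithelial lines, without overlap, but the difference from 4C was not called. The 2 lower ones were *Pros1* and *Fgf2*, at -2.48 ± 0.83 (SD, n = 3) in 4C11− and below all other libraries. Only *Igf2* and *Pros1* were called against 4C.

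Of 19 receptor tyrosine kinases, 7 were higher and 3 lower (median 0.71), and 6 and 3 without replicate 1. *Egfr* was at 4.74 ± 0.42 (SD, n = 3) in 4C11− and 4.24 in 4C, at least 3.45 higher than the mean of the other lines (limma, adjusted p = 7.9e-06). *Pdgfra* (8.06 ± 0.15, SD, n = 3) and *Mst1r* (3.19 ± 0.49, SD, n = 3), the receptor of macrophage-stimulating protein, lay above all other libraries. The lower ones were *Met*, *Kit* and *Erbb3*, and of the 19 only *Met* was called against 4C. Other receptors stayed close to the mean of the other lines, as *Ddr1* (0.09), *Tyro3* (-0.09) and *Erbb2* (0.54), none of them called.

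In the Wnt pathway, 13 of 35 genes were higher and 1 lower (median 0.69), and 12 and 3 without replicate 1. The ligands *Wnt4*, *Wnt6*, *Wnt11*, *Wnt7b*, *Wnt9a*, *Wnt3* and *Wnt2b* were higher. The inhibitors *Wif1* and *Nkd1* were higher too, with *Wif1* at 7.38 ± 0.18 (SD, n = 3) in 4C11−, 6.60 in 4C and at least 5.25 above the mean of the other lines. *Wnt2b* was the only one particular to 4C11−, with 2.12, 2.32 and 2.09 against at most 0.48 in the other libraries, and its call against 4C (limma, adjusted p = 0.0354) was lost without replicate 1 (adjusted p = 0.0701). *Wnt5a*, a noncanonical ligand, was at -3.15 in all 3 libraries of 4C11−, 4.14 on average in 4C, -0.25 and 4.95 in melan-a and at 3 reads or fewer in 4C11+. *Wnt5a* was at least 5.71 log2 units lower than in 4C (limma, adjusted p = 0.0028) and was not particular, since 4C11+ was at the same limit. *Rnf43*, which removes Wnt receptors from the surface, was lower than in 4C (means -2.08 and 2.00; limma, adjusted p = 0.0482).

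For TGF-beta and BMP signalling, 14 of 33 genes were higher and 0 lower (median 1.03), and 9 and 0 without replicate 1. Among them were the ligands *Bmp4*, *Bmp7*, *Inhbb* and *Tgfb3*, the antagonists *Nog* and *Fst* and the targets *Id1*, *Id3*, *Smad6* and *Smad7*. *Id1* was at 8.14 ± 0.78 (SD, n = 3) in 4C11−, 6.30 in 4C, 4.57 in melan-a and 3.09 in 4C11+, and *Id1* and *Id3* did not overlap the other libraries (*Id3* had an adjusted p of 0.0552 in limma without replicate 1). *Bmp7*, *Tgfb3*, *Smad6* and *Smad7* were not called without replicate 1 either, with adjusted p from 0.0780 (*Bmp7*) to 0.12 (*Smad6*) in limma. The receptors *Tgfbr1*, *Tgfbr2*, *Bmpr1a* and *Bmpr2* differed by -0.96 to -0.01 and were not called, and *Bmpr1a* and *Bmpr2* changed sign without replicate 1 (0.58 and 0.42). Of the 33, 0 were called against 4C.

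Interferon-stimulated and MHC class I genes were higher in 19 and lower in 1 of 31 cases (median 1.87), and this count fell to 11 and 1 without replicate 1. *Ifit1* was at 5.47, 5.98 and 5.75 in 4C11−, 4.02, 3.35 and 3.57 in 4C, 3.37 and 2.71 in melan-a and 0.84, 2.09 and 1.04 in 4C11+ and was particular to 4C11− (difference 3.06, standard error 0.32; limma, adjusted p = 6.2e-05). *Cmpk2*, an interferon-inducible nucleotide kinase, was particular as well, at 6.20, 6.11 and 5.37 against at most 4.23. *Oasl2*, *Sp100*, *Gbp3*, *Psmb9* and *Tap1* also lay above all other libraries. *H2-K1*, a class I heavy chain, was at 7.24 ± 1.43 (SD, n = 3) in 4C11−, 5.50 in 4C, -0.71 in melan-a and 1.78 in 4C11+, and class I genes share sequence, so reads could be split between them. The lower gene was *Mx1*, on chromosome 16, with -1.01, -3.15 and -3.15. *Rsad2* was higher than in 4C (5.54 ± 1.33, SD, n = 3, against 2.32; limma, adjusted p = 0.0485, and 0.111 without replicate 1), with 7.02 in replicate 1 and 5.16 and 4.44 in the other two. The summed level of the list was 10.50 to 11.85 log2 CPM in 4C11− and 8.70 to 10.85 in the other libraries, so the ranges overlapped.

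Axon guidance genes were divided, with 9 higher and 9 lower of 33 (median 0.09), and 9 and 7 without replicate 1. *Ntn1*, *Slit3*, *Sema3f*, *Efnb1* and *Ephb2* were among the higher ones and *Unc5c*, *Sema6d*, *Sema3d*, *Plxnd1*, *Neo1* and *Epha4* among the lower ones. *Sema4a* was at 3.06, 2.86 and 1.91 in 4C11− and 3 reads or fewer in 4C, and it was called against 4C (difference at least 3.87; limma, adjusted p = 0.0064). Its 4C11− libraries lay above all others, although the difference from 4C11+, whose highest library had 1.77, was not called.

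Of 19 integrin subunits, 2 were higher, *Itga9* and *Itga3*, and 4 lower, *Itga8*, *Itgb3*, *Itga6* and *Itgav* (2 and 3 without replicate 1, when *Itgav* was not called; median -0.06). *Itga6*, a laminin receptor subunit, was at 5.93 ± 0.22 (SD, n = 3) in 4C11− against 8.91 in melan-a, 8.17 in 4C11+ and 6.60 in 4C, and *Itga6*, *Itgb3* and *Itgav* lay below all other libraries. *Itgb3* and *Itgav* form the αvβ3 receptor. *Itgb8* was higher than in 4C (1.79 ± 1.49, SD, n = 3, against -2.96; limma, adjusted p = 0.0059) and at 4.65 in melan-a.

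The vascular list held 4 higher and 3 lower of 15 measured genes (median 0.33), and 3 and 2 without replicate 1. *Cdh5*, *Flt1*, *Pgf* and *Vegfd* were higher, and *Pgf*, placental growth factor and a ligand of FLT1, was at 4.69 ± 0.68 (SD, n = 3) in 4C11−, 3.79 in 4C, 0.81 in melan-a and 1.45 in 4C11+. *Vegfc*, *Vegfb* and *Angpt2* were lower, and *Vegfd* and *Angpt2* were not called without replicate 1. *Nrp2*, a coreceptor of VEGF and semaphorins, was lower than in 4C alone (7.91 ± 0.10, SD, n = 3, against 9.46; limma, adjusted p = 0.0203, and 0.0518 without replicate 1). *Vegfa* differed by 0.75 and was not called.

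Lists of growth control held fewer called genes than the matrix and interferon lists. The cell cycle counts were near the shares over all genes (8.7% higher and 6.34% lower), while the higher counts for apoptosis, Notch and ERK output were above that share. For ERK output, 3 of 20 were higher and 0 lower (median 0.44; 2 and 1 without replicate 1), and *Dusp9*, *Dusp5* and *Egr1* were the 3 (*Egr1* not without replicate 1), while *Dusp6*, *Spry2*, *Ccnd1* and *Myc* were not called. For the cell cycle, 3 of 35 were higher and 2 lower (median 0.19; 5 and 3 without replicate 1). Of these, *Cdkn2a* and *Cdkn2b* were at 7.30 and 5.15 in 4C11−, close to melan-a and 4C, with 4C11+ alone at 3 reads or fewer, while *Cdkn1b*, at 6.37 ± 0.05 (SD, n = 3), lay below all other libraries. For apoptosis, 6 of 28 were higher and 0 lower (median 0.17; 4 and 1 without replicate 1), among them *Casp4* (2.71 ± 0.22, SD, n = 3), *Fas* and *Bcl2l1*, of which *Casp4* and *Bcl2l1* were not called without replicate 1 (limma, adjusted p = 0.0512 and 0.0509). For hypoxia genes, 1 of 19 was higher and 2 lower (median -0.31; 1 and 2 without replicate 1). In Notch signalling, 3 of 13 were higher and 1 lower (median 0.29; 0 and 1 without replicate 1), so *Notch3*, *Hes1* and *Lfng* were called only with replicate 1 included.

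Among 61 chromatin modifiers, 3 were higher and 4 lower (median 0.06; 3 and 2 without replicate 1). *Kat6b*, *Crebbp* and *Kdm3a*, which encode acetyltransferases and a demethylase, lay below all other libraries (*Crebbp* was not called without replicate 1, adjusted p = 0.0527 in limma), and *Kat6b* was also called against 4C (3.22 ± 0.43, SD, n = 3, against 4.66; limma, adjusted p = 0.0299, and 0.0571 without replicate 1). *Kat6b* was at 2.72 in replicate 1 and 3.42 and 3.52 in the other two libraries, and *Crebbp* at 5.10, 6.03 and 6.13. *Hdac1* was higher, at 7.88 ± 0.19 (SD, n = 3). Of 20 cytokine and receptor genes, 7 were higher and 1 lower (median 0.62; 6 and 1 without replicate 1), and *Il11ra1* and *Lifr* were called against 4C, the latter lower (6.37 ± 0.41, SD, n = 3, against 8.11; limma, adjusted p = 0.0377, and 0.0949 without replicate 1). Of 6 measured Schwann and neural crest markers, 5 were lower and 0 higher, both with and without replicate 1, and *Sox10* and *Erbb3* are among them.

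The study chose 10 hub genes of its midnight blue module on these same samples, so their direction is no independent evidence. In 4C11−, 6 of the 10 were higher and 4 lower, and all 10 lay beyond all other libraries. Of these, *Cdh5*, *Flt1*, *Trabd2b* and *Ccdc88c* met the rule for particular genes. *Bace2*, a membrane protease, was at -3.25 ± 0.17 (SD, n = 3) in 4C11− and 0.37 in 4C, at least 6.32 lower than the mean of the other lines, and its difference from 4C was not called. Of the 10 hubs of the red module, likewise chosen on these samples, 4 were higher and 3 lower.

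The particular lower genes drew attention to chromosome 16, and the comparison by chromosome was made after this was seen and carries no test. Among genes with a mean log2 value over 3, the 310 genes of chromosome 16 had a median difference of -0.61 from the mean of the other lines. It was -0.79 against melan-a, -0.56 against 4C and -0.51 against 4C11+. Relative to the mean of the 4 lines, the median of the chromosome was -0.35, -0.40 and -0.37 in the libraries of 4C11− and between -0.03 and 0.40 in the 8 others, and it was the only chromosome of 20 on which the libraries of 4C11− did not overlap the rest. Replicate 1 was not apart from the other two here, and the median without it was -0.55. The median GC content of these genes was 48.1%, within the range of 45.4 to 52.7% of all chromosomes.

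**Figure D4:**
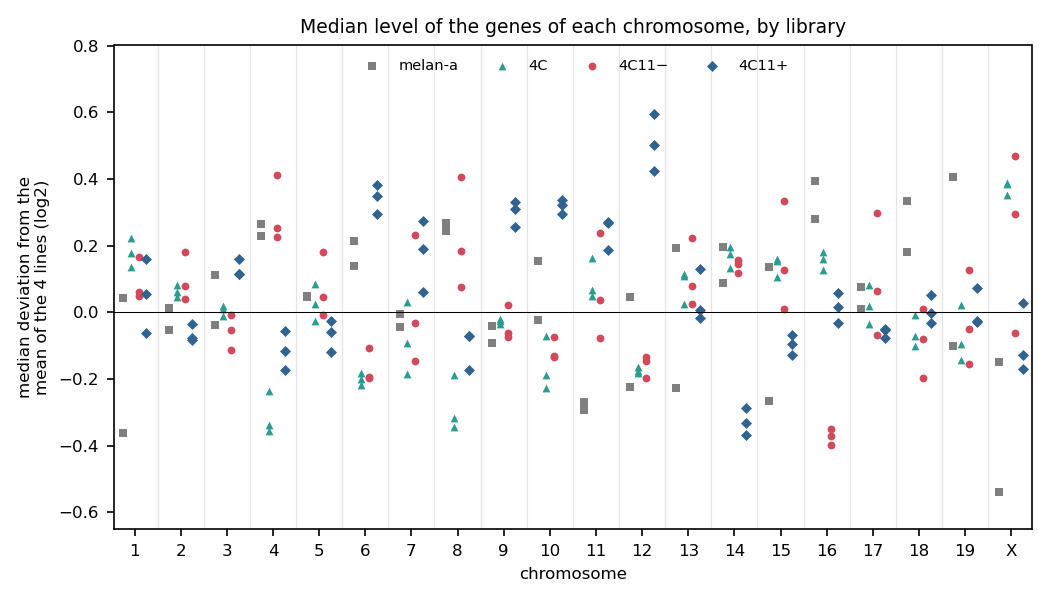
Median deviation of the genes of each chromosome from the mean of the 4 lines, in log2 units, with a point for each library and genes with a mean log2 value over 3. The 3 libraries of 4C11− (red circles) lie between -0.40 and -0.35 on chromosome 16, below all other libraries, whereas on chromosome 4 they lie between 0.23 and 0.41, a range that overlaps melan-a.

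The lower level extended along the whole chromosome. When its genes were divided in order into 8 parts of 38 or 39 genes, the median was below 0 against each of the 3 lines in all 8 parts, from -0.95 to -0.59 against melan-a, from -0.86 to -0.42 against 4C and from -0.63 to -0.23 against 4C11+. Of the 310 genes, 67.4% were lower in 4C11− than in each other line mean, against 20.01% of the 9060 genes elsewhere. Of the 310, 90 were called lower and 9 higher against the mean of the other lines. Over all 14272 genes tested, including those of low level, 6.34% were called lower and 8.7% higher. Chromosome 6 had the next largest number called lower, 59 of 470 genes. *Crebbp*, *Mx1*, *Arhgap31* and *Pros1* belong to this chromosome, and the difference of *Pros1* was larger than that of the chromosome by several log2 units. DNA copy number was not measured in these samples, and its part in this pattern was not tested.

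**Figure D5:**
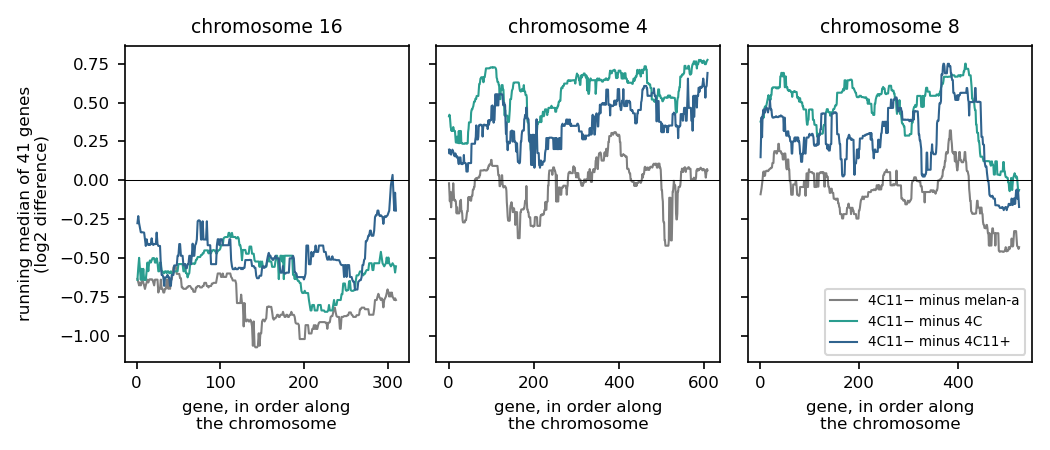
Running median over 41 genes of the log2 difference between 4C11− and each other line, with genes in order along chromosomes 16, 4 and 8. On chromosome 16 the running median (fewer genes at the ends) is below 0 at all 310 genes against melan-a and 4C and at 308 against 4C11+, while on chromosome 4 it lies between 0.14 and 0.77 against 4C and between -0.42 and 0.31 against melan-a.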

How the data were processed

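RNA from 11 cultures was sequenced as stranded total RNA after ribosomal depletion. Per the labels and the study's methods, reads were trimmed with Trimmomatic and aligned with STAR to GRCm38, counted per gene with Rsubread, filtered to genes with at least 1 CPM in 4 libraries, and transformed by voom. The deposited values are the log2 CPM that the authors obtained, for 14272 genes. Every library ends at the same highest value, 13.69, as after quantile normalization, which is not named for these files. Such scaling fixes the overall distribution, so every difference is relative to the other genes of a library.

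From the deposited log2 values, limma 3.58.1 in R 4.3.3 was fitted with a mean for each line, a trended prior variance and Benjamini-Hochberg adjustment over all genes, after the script had been checked on simulated data. Contrasts were 4C11− against the mean of the other 3 line means and against each line. Named were up to 20 genes higher and up to 20 lower with the largest difference among those particular to 4C11−, and called members of the gene lists. The contrast, lists and named rule were chosen with earlier results of these data known, and the comparison by chromosome and further particular genes were named after their values were seen. Positions, lengths and GC content came from GENCODE M21 on GRCm38, with lengths known for 14248 genes. Alternatives were a filter at a mean log2 of 1, library weights, raised low values, 2 groups, a replicate block and each library left out. A correction for GC content, the list counts without replicate 1 of 4C11− and the settings for chromosomes were added after seeing the data. Same-numbered cultures were not shown to be paired. Some results are not reported here.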

Additional observations from a re-analysis of the deposited data

How the results depend on the processing

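The balance of higher and lower calls changed with the setting. The count against the mean of the other lines was 2147 and became 4500 with library weights (2208 higher and 2292 lower) and 27 when the 8 other libraries were taken as 1 group, which widens the spread by the differences between lines. With GC content corrected, 1407 were higher and 1413 lower, and without 4C11− replicate 1, 915 and 982, against 1242 and 905. The count against 4C, 238, became 125 with genes of a mean log2 of at least 1, 2501 with library weights and 402 with GC content corrected. Against 4C11+, 4433 became 9238 with library weights. The 57 particular genes became 28 with the filter, 86 with low values raised, 292 with library weights, 88 with GC content corrected and 662 when only a lack of overlap was asked for. Why weights and GC content move these counts was not tested. Among the 20 higher and 15 lower particular genes with the largest differences, the call against the mean of the other lines was lost for 14, all under the 2-group fit, and no direction turned. For called members of the gene lists that are named in the report, a loss of the call without 4C11− replicate 1 is stated there. Further members also lost theirs and are not named there. In the interferon and MHC list these were *Ddx58*, *Usp18*, *Ifitm3*, *Irf7*, *Irf9*, *Irf1*, *Stat2* and *Nlrc5*, and others include *Tnc*, *Lama5*, *Hspg2* and *Fgfr3*. Of uncalled genes, *Bmpr1a*, *Bmpr2*, *Ddr1* (-0.33), *Lama4* (-0.02) and *Vwf* (-0.03) changed sign without it.

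With each library left out in turn, the counts ran from 1228 to 2449 against the mean of the other lines, from 1366 to 2098 against melan-a, from 93 to 320 against 4C, from 2986 to 4813 against 4C11+ and from 22 to 73 for the particular genes. The first fell to 1228 without 4C11− replicate 2. The count against 4C was 93 and 113 without 4C replicates 2 and 3, 97 without 4C11− replicate 2 and 155 without 4C11+ replicate 1, and the particular genes then numbered 29, 31, 22 and 36. The median of chromosome 16 was -0.55 without 4C11− replicate 1.

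Deviations of same-numbered libraries had correlations from -0.226 to 0.388, so the numbers were not taken to pair the cultures. With the replicate number as a block, the counts were 2157, 1876, 254 and 4715, with 52 particular genes.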

Other observations

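Some genes without overlap lay next to each other among the measured genes. On chromosome 12, *Bdkrb2* and *Bdkrb1*, the receptors of bradykinin, followed *D430019H16Rik*, a particular gene, and were at least 5.57 and 3.79 log2 units higher in 4C11− (limma, adjusted p = 3.5e-06 and 1.7e-06). On chromosome 11, *Cacna1g*, a T-type calcium channel like *Cacna1h*, stood beside *Epn3*, an endocytic adaptor, and *Mycbpap*, and these were at least 4.97, 4.19 and 2.52 higher. On chromosome 4, *Epha8*, an ephrin receptor, was at least 5.27 higher beside *Ephb2* (2.80). None of these was called against 4C except *D430019H16Rik* (5.66; limma, adjusted p = 0.0044). The runs were chosen after their values were seen.

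Chromosomes 4 and 8 had medians above 0 against the mean of the other lines, 0.31 over 609 genes and 0.23 over 524 genes. Their libraries overlapped those of melan-a. Against 4C the medians were 0.60 and 0.46, against 4C11+ 0.37 and 0.28, and against melan-a 0.01 and -0.09.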
